A study of Homo sapiens with 16 samples.

Results

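A set of 7 protein-coding genes whose transcripts were strongly reduced in neuroblastoma cells given indisulam were followed through every library of the study: MIPEP, LAP3, MYO1C, DHFR2, DLGAP2, C4orf50 and SGK494. They were picked by name, as protein-coding genes among the deepest falls with indisulam or with indisulam plus alectinib, and are 7 of the 58735 genes in the count table. All 7 were among the 22433 genes with enough counts to be tested. Their changes in indisulam and in the combination chose them, so these are given as a description with no test. Changes in alectinib alone were not used for the choice and were tested. They are not independent of it, since the DMSO libraries are the same and the combination also holds alectinib.

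The cells were IMR32, a human neuroblastoma line with the label genotype WT. They received DMSO (the vehicle), indisulam at 1.25 µM, alectinib at 4 µM, or both drugs at those doses, for 24 h, with 4 libraries per group and 16 in all. Polyadenylated RNA was sequenced as paired reads of 150 bases. IMR32 is 1 cell line, and the labels number the libraries without saying that they came from separate cultures, so a p-value here reflects no more than how these libraries vary, part of which may be technical.

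Indisulam is an aryl sulfonamide that joins the RNA-binding protein RBM39 to DCAF15, the substrate receptor of a cullin ubiquitin ligase, and RBM39 is then degraded. RBM39 takes part in choosing splice sites, and its loss is known to cause exon skipping and intron retention in many transcripts, some of which then decay. Alectinib blocks ALK, a receptor tyrosine kinase that drives some neuroblastomas. A gene-level count holds no information on which exons were joined, so splicing of the 7 transcripts was not measured here.

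Alectinib replicate 1 had 90.2 M counts (M, 1e6), and the other 15 libraries had 55.1 to 63.7 M. All 12 neuroblastoma markers examined (among them HAND2, GATA3 and MYCN) had a mean of at least 1 count per 1e6 (CPM). Their summed level was 5.05e+03 to 5.5e+03 CPM in DMSO, 5e+03 to 5.59e+03 in indisulam, 3.84e+03 to 4.35e+03 in alectinib and 2.98e+03 to 3.52e+03 in the combination. The 7 fibroblast markers summed to 33.9 to 37.9, 25.6 to 28.2, 20.1 to 25.7 and 15.3 to 17.9 CPM in the same order. Blood markers reached at most 2.19 CPM in any library, with CD3E and HBB among those at 0, and epithelial markers at most 2.32 CPM, with KRT18 at 0. The part of these shifts in the results was not tested. In bulk RNA, fewer cells of a type and less RNA per cell cannot be told apart.

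Libraries of a group differed in how far they lay from DMSO. Over the 2515 genes at least 2-fold lower in the combination, the median log2 change from DMSO was -1.27 in combination replicate 2 and between -1.39 and -1.46 in the other libraries of the group. Gaps of this kind were also seen elsewhere. Over the genes at least 2-fold higher, the median was 1.26 in alectinib replicate 2 (1.38 to 1.42 in the rest of its group) and 1.41 in indisulam replicate 2 (1.58 to 1.71). Over the genes at least 2-fold lower in alectinib it was -1.28 in alectinib replicate 3 (-1.14 to -1.19 in the rest). Combination replicate 2 was also the highest library of its group for 6 of the 7 genes, the exception being DHFR2. Over all genes with enough counts it was not alone. Combination replicates 2 and 4 differed least (chi-square per degree of freedom 9.41), then 1 and 3 (11), and 1 and 4 differed most (37.5). Values that rest on combination replicate 2 are given below with and without it.

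The promoters of MIPEP, LAP3 and DHFR2 are shown because each holds the same short motif upstream of its start, and because with alectinib alone MIPEP fell while DHFR2 rose. The sequences are the 250 bases before the RefSeq transcription start (GRCh38.p14), written 5′ to 3′ on the gene's strand. That start need not be the end of the gene as counted. The DHFR2 sequence lies wholly inside the counted span of DHFR2 (94047836 to 94063389). It also lies inside the span of NSUN3 (94062916 to 94128545), a gene on the opposite strand. Capitals mark matches, on either strand, to the motifs of ETS factors, the GC box, the cyclic AMP response element and the E-box, whose letters are given below.
MIPEP, chr13:23889401-23889650, minus strand: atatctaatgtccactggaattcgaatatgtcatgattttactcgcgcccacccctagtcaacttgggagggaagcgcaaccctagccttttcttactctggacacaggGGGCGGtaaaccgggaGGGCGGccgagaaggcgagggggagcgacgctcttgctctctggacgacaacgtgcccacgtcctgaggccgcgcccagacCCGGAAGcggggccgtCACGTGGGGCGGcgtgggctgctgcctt
LAP3, chr4:17576948-17577197, plus strand: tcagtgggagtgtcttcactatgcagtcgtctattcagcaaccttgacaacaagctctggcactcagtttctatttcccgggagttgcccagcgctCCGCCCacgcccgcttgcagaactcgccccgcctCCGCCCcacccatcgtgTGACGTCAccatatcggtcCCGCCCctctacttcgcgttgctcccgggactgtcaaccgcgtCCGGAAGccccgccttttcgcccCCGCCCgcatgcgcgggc
DHFR2, chr3:94062917-94063166, minus strand: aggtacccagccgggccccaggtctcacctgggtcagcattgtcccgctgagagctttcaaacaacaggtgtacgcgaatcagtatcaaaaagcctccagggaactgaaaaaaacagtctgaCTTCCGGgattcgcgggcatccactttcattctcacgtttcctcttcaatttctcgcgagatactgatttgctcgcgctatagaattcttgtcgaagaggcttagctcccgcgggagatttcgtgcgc
The ETS motif, with the letters CCGGAAG, begins 44 bases before the start in MIPEP, 41 in LAP3 and, on the opposite strand, 128 in DHFR2, and 10.3% of all 35116 RefSeq promoter windows of 300 bases held it. The 300-base window of DHFR2 held 2 matches, and the other is not wholly within the 250 bases shown. The GC box was searched as GGGCGG and was found in 45% of the windows. The cyclic AMP response element, TGACGTCA, was found in 1.85% of the windows. For the E-box the letters CACGTG were used, and 7.26% of the windows held them. In the MIPEP sequence the E-box is directly followed by a GC box. Also searched were a TATA box (TATAAA, in 11.5% of windows), a CCAAT box (CCAAT, 34.6%) and the NRF1 site (5.78%), and none of these was in the windows of MIPEP, LAP3 and DHFR2. Windows were also found for MYO1C, C4orf50 and SGK494 (listed there as RSKR), of which the ETS motif was in none. Those of C4orf50 lie inside its counted span. The bases before their starts reach up to 6018796, while the span reaches 6200555. A match describes the letters only, and its absence says only that these letters are not in the window. No window was used for DLGAP2.

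MIPEP (ENSG00000027001, GRCh38 chromosome 13, 23730189 to 23889419, minus strand) encodes the mitochondrial intermediate peptidase, which removes a short peptide from the front of proteins imported into the matrix. Its level was 17.0, 16.5, 14.2 and 15.8 CPM in DMSO replicates 1 to 4. In indisulam it was 2.29, 2.54, 2.25 and 1.82 CPM. Every indisulam library lay far below every DMSO library, with 14.0% of the DMSO mean left. The combination libraries held 1.76, 2.55, 2.03 and 2.11 CPM, so the 2 groups given indisulam overlap. Alectinib alone gave 9.23, 10.2, 11.2 and 9.44 CPM. These values stand between DMSO and indisulam with no overlap on either side.

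The log2 change of MIPEP was -2.84 ± 0.13 (SE) in indisulam and -2.91 ± 0.13 in the combination. With alectinib alone it fell by 0.67 on the log2 scale (SE 0.11, edgeR adjusted p = 0.000171), lower in all 4 libraries. The sum of the single-drug changes would be -3.50, and the combination was higher than that by 0.59 ± 0.17. MIPEP was therefore no lower with both drugs than with indisulam alone by more than the spread between libraries. The difference of the combination from indisulam was -0.07 ± 0.13. Without combination replicate 2 that value was -0.18 ± 0.14.

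LAP3 (ENSG00000002549, chromosome 4, 17577192 to 17607972, plus strand) encodes the cytosolic leucine aminopeptidase, which trims amino acids from the front of peptides. In DMSO it was at 50, 56.8, 52.5 and 52.5 CPM. Under indisulam the libraries held 7.85, 10.8, 9.20 and 10.2 CPM, 18.0% of the DMSO mean. In the combination they held 5.34, 9.90, 6.03 and 7.66 CPM. Both sets lie well under DMSO and overlap one another, the highest combination value being that of replicate 2. Alectinib libraries were at 40.9, 48.2, 43.8 and 42.7 CPM, all below the lowest DMSO library.

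LAP3 changed by -2.48 ± 0.13 (SE) on the log2 scale in indisulam and by -2.87 ± 0.14 in the combination. In alectinib the value was -0.27 ± 0.12 and did not pass the test (edgeR adjusted p = 0.119). Over the other ways of fitting, its adjusted p ran from 0.00586 to 0.259, so that call depends on the fit. LAP3 is therefore left without a call. The combination lay -0.39 ± 0.13 from indisulam, or -0.59 ± 0.12 without combination replicate 2. Its distance from the sum of the single drugs was -0.12 ± 0.18, and -0.31 ± 0.15 without that library.

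MYO1C (ENSG00000197879, chromosome 17, 1464186 to 1492812, minus strand) encodes a class I myosin, a single-headed motor that links membranes to actin. DMSO libraries 1 to 4 were at 44.1, 42.8, 40.5 and 44.5 CPM. Indisulam libraries were at 7.88, 7.23, 7.30 and 5.85 CPM, or 16.4% of the DMSO mean. Combination libraries were at 3.74, 7.31, 3.86 and 3.74 CPM. All of these but replicate 2 lie below every indisulam library, and replicate 2 lies among them. With alectinib alone the level was 29.2, 29.7, 32.6 and 30.6 CPM, a tight set below all DMSO libraries.

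The log2 change of MYO1C was -2.60 ± 0.15 (SE) in indisulam and -3.20 ± 0.15 in the combination, or -3.51 ± 0.10 without combination replicate 2. With alectinib alone it fell by 0.49 ± 0.14 (edgeR adjusted p = 0.0110), and it fell by 0.42 to 0.53 over the other ways of fitting. Combination replicate 2 sets how far MYO1C lies under indisulam in the combination. From indisulam to the combination the difference was -0.60 ± 0.15 with all libraries and -0.90 ± 0.10 without replicate 2. Likewise the distance from the sum of the single drugs moved from -0.11 ± 0.20 to -0.41 ± 0.13.

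DHFR2 (ENSG00000178700, chromosome 3, 94047836 to 94063389, minus strand) encodes an enzyme of folate reduction. In DMSO its libraries held 11.6, 12.7, 12.7 and 11.4 CPM. In indisulam they held 1.53, 1.5, 1.88 and 1.42 CPM, or 13.1% of the DMSO mean. Alectinib libraries held 16.8, 16.3, 15.9 and 15.7 CPM, all above the highest DMSO library. The combination gave 4.02, 3.33, 3.40 and 3.09 CPM, all above the highest indisulam library. The order of DHFR2 was therefore alectinib, DMSO, combination, indisulam, with no overlap between neighbours.

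DHFR2 had the lowest value of the 7 in indisulam, -2.93 ± 0.11 (SE) on the log2 scale, and the highest in the combination, -1.81 ± 0.11. It was the one gene of the set that rose with alectinib alone, by 0.42 ± 0.10 (edgeR adjusted p = 0.00327). DHFR2 was thus higher with alectinib than without it, both in the absence and in the presence of indisulam. On top of indisulam, alectinib went with a difference of 1.13 ± 0.12, to 219% of the indisulam mean. The combination was 0.71 ± 0.15 above the sum of the single drugs, and 0.72 ± 0.16 without combination replicate 2.

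DLGAP2 (ENSG00000198010, chromosome 8, 737596 to 1708474, plus strand) encodes a SAPAP scaffold of the postsynaptic density, which ties PSD-95 proteins to SHANK proteins. Its DMSO libraries were at 37.6, 30.7, 31.2 and 30.1 CPM, with replicate 1 apart from the rest. Indisulam libraries were at 6.01, 4.31, 5.25 and 3.69 CPM, and combination libraries at 3.16, 4.94, 4.13 and 3.04 CPM. The sets with indisulam overlap each other and stay far below DMSO. Alectinib libraries, at 18.4, 15.4, 20.9 and 22.1 CPM, lie between them and DMSO without touching either.

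On the log2 scale DLGAP2 was at -2.75 ± 0.15 (SE) in indisulam and -3.08 ± 0.16 in the combination. With alectinib it fell by 0.75 (SE 0.14, edgeR adjusted p = 0.000451). The combination differed from indisulam by -0.34 ± 0.16, or -0.49 ± 0.16 without combination replicate 2, and by -0.21 without indisulam replicate 1. Its distance from the sum of the single drugs was 0.42 ± 0.21, or 0.27 ± 0.20 without combination replicate 2.

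C4orf50 (ENSG00000181215, chromosome 4, 5897373 to 6200555, minus strand) is a gene named only by its position. It held 20, 18.7, 16.3 and 19.1 CPM in DMSO. Indisulam libraries held 2.61, 3.32, 2.92 and 2.69 CPM, and combination libraries 1.72, 2.44, 1.48 and 1.27 CPM. All combination values lie under all indisulam values, the nearest being replicate 2. In alectinib the level was 9.11, 9.99, 11.2 and 10.6 CPM, well below DMSO. Its log2 change was -2.68 ± 0.14 (SE) in indisulam and -3.42 ± 0.15 in the combination, the lowest of the 7 there, with 9.34% of the DMSO mean left. The loss was thus deepest with both drugs. With alectinib alone it fell by 0.86 ± 0.13 (edgeR adjusted p = 5.06e-05). The combination lay 0.12 ± 0.20 above the sum of the single drugs, and at -0.09 ± 0.17 without combination replicate 2, so the sign of that value rests on 1 library.

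SGK494 (ENSG00000167524, chromosome 17, 28607964 to 28614200, minus strand), also named RSKR, encodes a serine/threonine kinase related to the ribosomal S6 kinases. DMSO libraries were at 12.6, 9.20, 9.08 and 9.87 CPM. Alectinib libraries were at 11.4, 9.34, 8.38 and 11.1 CPM. These sets overlap over most of their range. Indisulam gave 4.01, 3.23, 3.34 and 2.93 CPM, and the combination 1.49, 1.74, 1.5 and 1.26 CPM. The combination libraries hold less than every indisulam library, which in turn hold less than every DMSO library.

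SGK494 had the smallest loss of the 7 in indisulam, -1.59 ± 0.14 (SE) on the log2 scale, and was at -2.77 ± 0.15 in the combination. In alectinib its value was -0.02 ± 0.13 (edgeR adjusted p = 0.947), and its sign was not fixed: upper-quartile scaling gave 0.06, and leaving out DMSO replicate 1 gave 0.10. With alectinib alone SGK494 thus overlapped the DMSO range, and with both drugs it lay below the indisulam range. The combination differed from indisulam by -1.17 ± 0.15 and lay -1.16 ± 0.20 from the sum of the single drugs. The last value was -1.24 ± 0.21 without combination replicate 2.

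**Figure D1:**
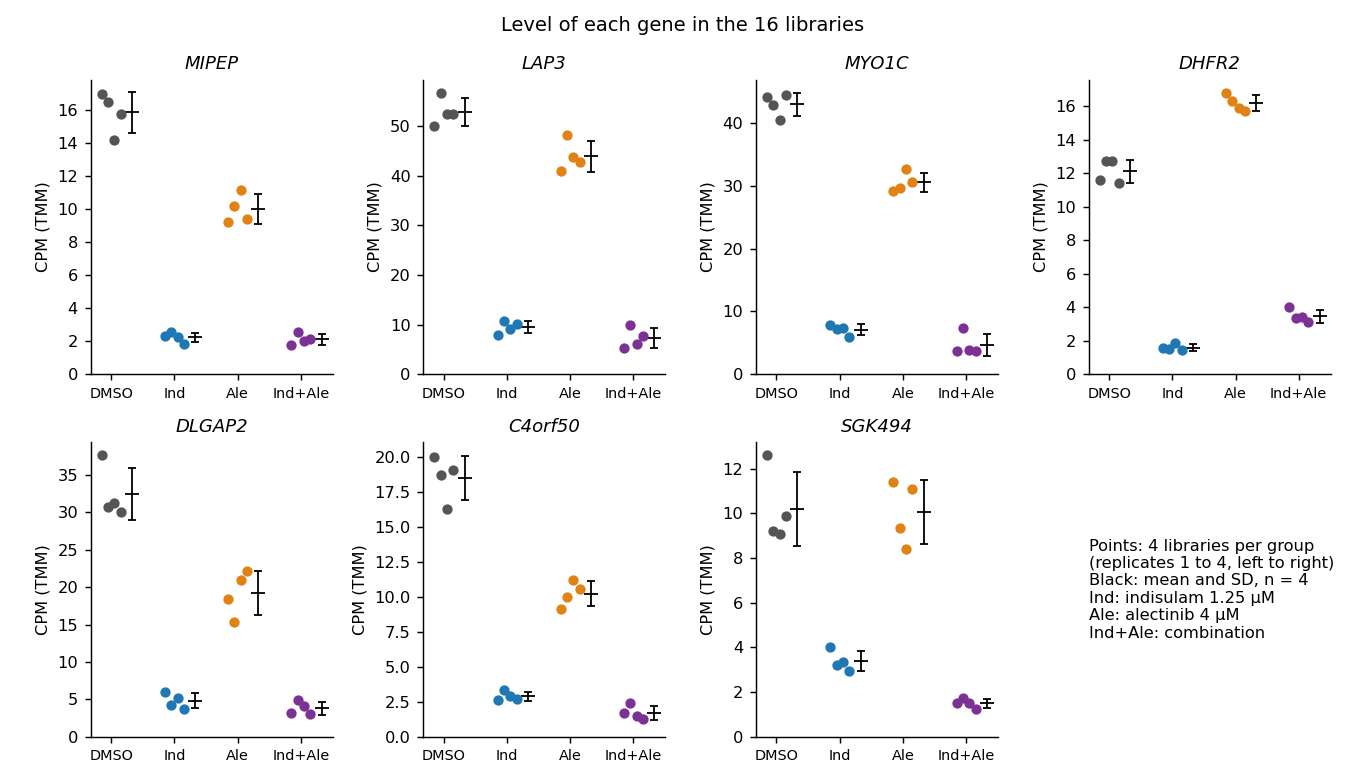
Level of each gene in CPM (linear axes from 0) in the 16 libraries, by treatment; points are libraries, black bars the mean and SD of 4. All genes but DHFR2 have their highest mean in DMSO, SGK494 overlaps between DMSO and alectinib, DHFR2 is highest in alectinib, and all 7 are low in both groups that received indisulam.

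Per kilobase of exon, which allows levels to be compared between genes, LAP3 was the most abundant in DMSO at 14.0 CPM per kb. MYO1C followed at 5.30 and MIPEP at 4.67 CPM per kb. DHFR2 was at 2.60, SGK494 at 2.18, DLGAP2 at 2.14 and C4orf50 at 0.896 CPM per kb. The lengths of C4orf50 and SGK494 include exon bases that other genes share. The smallest raw count behind any value of the 7 was 72, for SGK494 in the combination, followed by 73 for C4orf50.

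Across the 7 genes, the median log2 change was -2.68 in indisulam, beside -0.01 over all 22433 tested genes, and -2.91 in the combination, beside 0.01. The 4 indisulam values lay below the 4 DMSO values for all 7 genes, as they did for 22.6% of all tested genes, and the 4 combination values for all 7, as for 27.3%. These are the contrasts that chose the genes. In the order of the 12523 protein-coding genes with a mean of at least 1 CPM, DHFR2 was the 4th from the lowest in indisulam, MIPEP the 6th, DLGAP2 the 8th, C4orf50 the 10th, MYO1C the 11th and LAP3 the 16th. SGK494 was the 113th in indisulam and the 16th in the combination. C4orf50 was the 4th in the combination, between GALK1 at -3.52 and SLC25A10 at -3.31, whereas DHFR2 was only the 264th. Genes next to the set in the indisulam order that are not in it include MYH3 at -2.85, POLN at -2.82, DHRS2 at -2.70 and CFAP300 at -2.48. Next to it in the combination order stand HFM1 at -3.26, CERCAM at -2.94 and CDC45 at -2.82.

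Alectinib alone lowered 4 of the 7 genes (MIPEP, MYO1C, DLGAP2 and C4orf50), raised DHFR2, and left LAP3 and SGK494 without a call. Over all tested genes 12.3% were called lower and 9.99% higher in that comparison, and with upper-quartile scaling 64.0% of all calls were higher in place of 44.8%. The median of the 7 was -0.49, beside 0.01 over all tested genes. The alectinib values lay wholly below DMSO for 5 genes, LAP3 included, against 13.7% of all tested genes, and wholly above for DHFR2, against 12.7%. Since the DMSO libraries also served in choosing the genes, a high DMSO value would enter both differences. The combination, which also holds alectinib, served in the choice too, and this can favour genes that alectinib lowers. The counts and the median of the 7 can therefore not be weighed against those of all tested genes.

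Adding alectinib to indisulam divided the set. C4orf50 and SGK494 were lower in every combination library than in every indisulam library, as were 17.2% of tested genes, and DHFR2 was higher, as were 16.1%. The other 4 (MIPEP, LAP3, MYO1C and DLGAP2) overlapped between indisulam and the combination. For LAP3 and MYO1C the overlap was combination replicate 2 alone. Without that library 4 genes were wholly lower (LAP3, MYO1C, C4orf50 and SGK494), as were 19.4% of tested genes, and DHFR2 was still wholly higher, as were 18.4%. Adding indisulam to alectinib lowered the level of all 7 without overlap, as it did for 26% of tested genes (for 22.7% the combination lay wholly above alectinib). The differences ran between -2.23 (DHFR2) and -2.75 (SGK494) on the log2 scale. Set against the sum of the single drugs, SGK494 at -1.16 was the 30th from the lowest of the 12523 genes and DHFR2 at 0.71 the 329th from the highest. Over all tested genes, 13.5% were called for this deviation. Indisulam and the combination enter it and also chose the genes, so these ranks are a description. The choice favours such values, since DHFR2 was the 4th from the lowest in indisulam but the 264th in the combination. SGK494 was the 113th and the 16th. The same limit holds for the split of the set between indisulam and the combination.

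**Figure D2:**
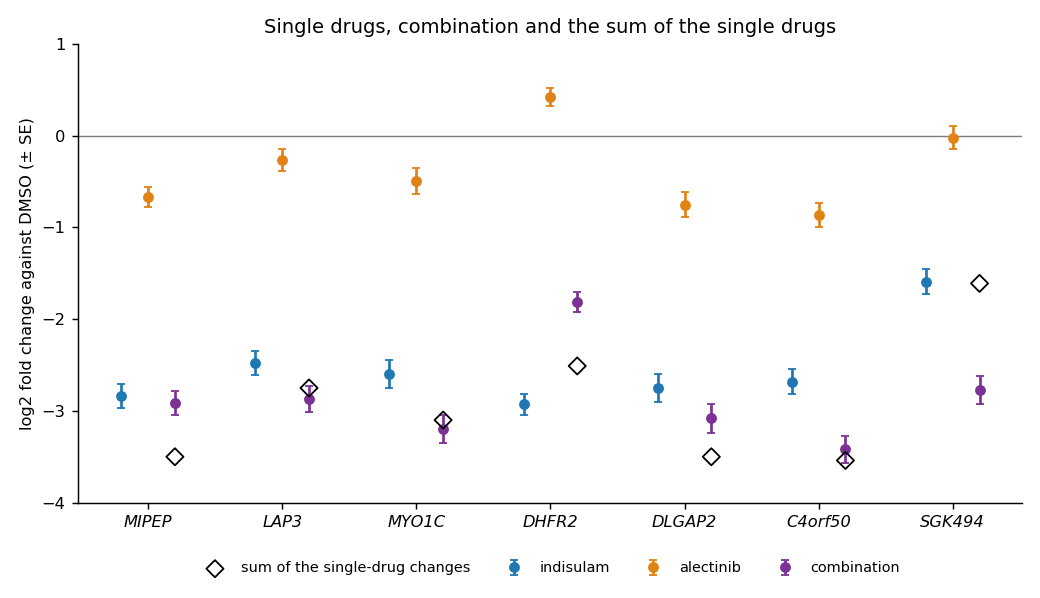
Log2 fold change against DMSO ± SE (n = 4 libraries per group) for each gene in indisulam, alectinib and the combination; open diamonds are the sum of the single-drug changes. The combination lies above the diamond for MIPEP (0.59) and DHFR2 (0.71), far below it for SGK494 (-1.16), and close to it for LAP3, MYO1C and C4orf50.

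The 7 genes followed each other over the 16 libraries, which is a description, since all were chosen to be low in the same 8 libraries. Pearson's r of log2 CPM ran from 0.773 between DHFR2 and SGK494 to 0.990 between MYO1C and C4orf50 over the 21 pairs. Among all tested protein-coding genes with at least 1 CPM, the patterns most like that of MIPEP were those of DNASE1L1 (0.994), SEZ6 (0.992) and MARS (0.992). For LAP3 they were SDHA (0.997), LCMT1 and PC (both 0.995), and for MYO1C they were IFT122 (0.995), TMEM63C and PC (both 0.994). DHFR2 was followed most closely by SMARCA1 (0.991), OARD1 (0.990) and R3HDM2 (0.988). DLGAP2 had PHF20 (0.989), BRD8 (0.988) and HEXDC (0.986), C4orf50 had NCAPH (0.994), ALDH7A1 (0.992) and SLC45A3 (0.991), and SGK494 had ASRGL1 (0.987), PDCD6IP (0.985) and CACNA1B (0.984). The points of each correlation are 4 groups of 4 libraries with shared treatments, not 16 independent points.

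The 7 genes differ in structure. In GENCODE 29, the transcript with the longest coding sequence has 33 introns in C4orf50, 31 in MYO1C, 18 in MIPEP, 14 in DLGAP2, 12 in LAP3 and 11 in SGK494. All 6 are above the median of 8 introns over 12500 protein-coding genes. DHFR2 has 1 intron, and only 2.47% of those genes have fewer. Their spans run from 6237 bases (SGK494) to 970879 bases (DLGAP2), around a median of 3.48e+04.

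How treatment of reads that map to several places could touch these values was not tested. The share of runs of 50 bases also found in genes without exon overlap was 3.15% for LAP3 (with the pseudogene LAP3P2 and the RNA PANDAR), 1.02% for DHFR2, 0.376% for SGK494, 0.323% for MIPEP and 0.183% for MYO1C. It was 0 for DLGAP2 and C4orf50.

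Exons of 5 of the 7 genes overlap those of another annotated gene, 9 partners in all, and LAP3 and MYO1C have none. Whether counting used strand, and how it treated reads in shared exons, is not given in the sources used here, so values of the overlapping pairs are uncertain. Of the 9 partners, 5 had enough counts to be tested, while PCOTH (partner of MIPEP), DLGAP2-AS1, AC092442.1 and AC005726.5 did not. AC005726.5, on the strand opposite SGK494, shares 99.9% of its exon bases with it and had 0 counts in all 16 libraries. NSUN3, a mitochondrial tRNA methyltransferase on the strand opposite DHFR2, shares 223 bases, or 4.79% of DHFR2 exons. It was at 15.2, 16, 16.7 and 13.5 CPM in DMSO and 21.3, 19.3, 17.6 and 23.0 in indisulam. NSUN3 rose in indisulam by 0.41 ± 0.11 (SE, edgeR adjusted p = 0.00343), opposite to DHFR2, and in the combination by 0.47 ± 0.11 (edgeR adjusted p = 0.000585).

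ERICH1 shares 42 bases with DLGAP2 from the opposite strand and was at -0.02 ± 0.08 (SE) in indisulam, where DLGAP2 was at -2.75. It fell in the combination by 0.68 ± 0.09 (edgeR adjusted p = 2.58e-07). C4orf50 shares 2971 exon bases, 14.4% of its own and 78.0% of those of JAKMIP1, on the same strand. JAKMIP1, which binds microtubules and Janus kinases, was low, at 0.302 CPM per kb in DMSO. Its log2 value was -0.29 ± 0.27 in indisulam, without a call (edgeR adjusted p = 0.408), and it fell by 1.25 ± 0.29 in the combination (edgeR adjusted p = 0.000648).

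SGK494 has the largest overlap of the 7, with 42.8% of its exon bases shared. Both tested partners fell with it. AC005726.1, on the same strand and with 629 shared bases, was at 9.08, 6.47, 6.35 and 7.46 CPM in DMSO and 1.93, 1.62, 1.70 and 1.80 in indisulam. In the combination it was at 0.351, 0.868, 0.283 and 0.768 CPM, below every other library. It fell by 2.05 ± 0.22 on the log2 scale in indisulam (edgeR adjusted p = 7.27e-08) and fell by 3.69 ± 0.25 in the combination (edgeR adjusted p = 1.2e-11). In alectinib AC005726.1 fell by 0.60 ± 0.21 (edgeR adjusted p = 0.0426), a call that several other fits lost. SPAG5-AS1, on the opposite strand with 328 shared bases, fell by 1.48 ± 0.20 in indisulam (edgeR adjusted p = 1.97e-06) and fell by 2.45 ± 0.22 in the combination (edgeR adjusted p = 9.68e-10). How many reads of SGK494 belong to these partners was not tested. In total 3 of the 5 tested partners were called in indisulam (47.8% of all tested genes were), 1 in alectinib (22.3%) and 5 in the combination (60.3%).

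**Figure D3:**
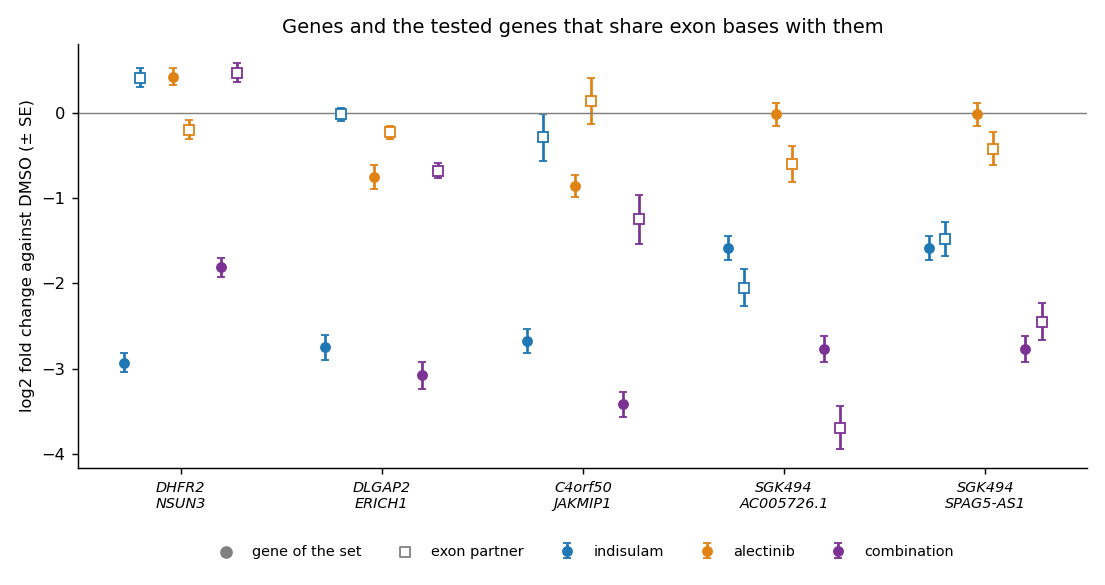
Log2 fold change against DMSO ± SE (n = 4 libraries per group) for genes of the set (filled circles) and the tested genes that share exon bases with them (open squares). Both tested partners of SGK494 are also low in indisulam and the combination, with AC005726.1 below SGK494 in the combination (-3.69 against -2.77). In those 2 groups NSUN3, ERICH1 and JAKMIP1 stay far above DHFR2, DLGAP2 and C4orf50.

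Genes of the same families or pathways were examined next, 92 in all and each tested in the fit over all genes. Of these, 45 fell and 15 rose in indisulam, where 24.8% and 23.0% of all tested genes did. In alectinib 26 fell and 6 rose, beside 12.3% and 9.99% of all tested genes. With upper-quartile scaling 18 fell and 10 rose there, beside 8.24% and 14.6%. In the combination 53 fell and 17 rose, where 30.6% and 29.7% of all tested genes did. With upper-quartile scaling these were 42 and 24, beside 25.7% and 35.8%. Among the 14 mitochondrial proteases related to MIPEP, 8 fell and 2 rose in indisulam, with a median log2 change of -0.23. In alectinib 3 fell and 1 rose, and in the combination 10 fell and 2 rose. PITRM1, which degrades presequences after they are cut off, fell by 0.75 ± 0.08 (SE, edgeR adjusted p = 2.01e-08). XPNPEP3, another peptidase that trims imported proteins, rose by 0.70 ± 0.08 (edgeR adjusted p = 1.02e-07). CLPX, the unfolding subunit of the ClpXP protease, fell by 0.42 and HTRA2, a protease of the intermembrane space, by 0.55.

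Of 21 genes for cytosolic peptidases and glutathione enzymes, 11 fell and 5 rose in indisulam (median -0.22), 9 fell and 1 rose in alectinib, and 13 fell and 4 rose in the combination. GSS, glutathione synthetase, fell by 1.79 ± 0.11 (SE) on the log2 scale (edgeR adjusted p = 6.12e-12). RNPEP, an aminopeptidase of basic residues, fell by 1.51 ± 0.09, and NLN, neurolysin, by 0.98 ± 0.07. GCLC, the catalytic subunit of the first enzyme of glutathione synthesis, rose by 0.53 ± 0.05.

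The 7 other class I myosins had no common direction, with 2 lower and 2 higher in indisulam. MYO1G, known mainly from blood cells, rose from 0.754 CPM in DMSO to 6.17 in indisulam and 16 in the combination, log2 changes of 3.02 ± 0.24 (SE) and 4.40 ± 0.24 (edgeR adjusted p = 4.63e-10 and 2.95e-13). The summed blood markers were 0.449 to 0.974 CPM in DMSO and 1.45 to 2.19 in the combination, and their part in this rise was not tested. MYO1H rose by 1.00 ± 0.26 in indisulam from a low level. MYO1D fell by 0.62 ± 0.15 and MYO1A, near the limit of detection, by 1.99 ± 0.57. MYO1E and MYO1F were not called in indisulam. In the combination 3 fell and 1 rose, or 1 and 2 with upper-quartile scaling. In alectinib edgeR called 0 of the 7, DESeq2 also 0, and 2 had an unadjusted p under 0.05, while upper-quartile scaling called MYO1G higher.

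In the folate and thymidylate cycle, 10 of 19 genes fell and 3 rose in indisulam (median -0.33), and 13 fell and 4 rose in the combination. In alectinib edgeR called 11 lower and 0 higher, with 0 higher also at an unadjusted p under 0.05 and 0 by DESeq2. Upper-quartile scaling called 7 lower there. SHMT2 and SHMT1, which move a carbon from serine to folate in the mitochondria and the cytosol, fell by 1.36 ± 0.09 (SE) and 1.22 ± 0.10 in indisulam. TYMS, thymidylate synthase, fell by 1.28 ± 0.08, and ALDH1L2, a mitochondrial formyl-folate dehydrogenase, by 1.25 ± 0.07. All 4 also fell in alectinib, by 0.96, 0.72, 0.53 and 0.28 in that order, whereas DHFR2 rose there.

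Of 17 postsynaptic scaffolds, 5 fell and 1 rose in indisulam (median 0.03), 2 fell and 2 rose in alectinib, and 8 fell and 2 rose in the combination, or 5 and 3 with upper-quartile scaling. The fall of DLGAP2 was not seen at that size in its paralogs. DLGAP3, DLGAP4 and DLGAP5 fell by 0.39 ± 0.08 (SE), 0.42 ± 0.07 and 0.27 ± 0.08, and DLGAP1 was at 0.05 ± 0.15. DLG3, a partner of the SAPAP scaffolds, fell by 0.47 ± 0.07, and SHANK2 rose by 0.25 ± 0.07. Of 14 kinases of the S6 and SGK families, 9 fell and 2 rose in indisulam (median -0.54). In alectinib 1 fell and 2 rose, and in the combination 6 fell and 4 rose, or 6 and 7 with upper-quartile scaling. RPS6KA2, RPS6KA3 and RPS6KB2 fell by 0.87 ± 0.06, 0.66 ± 0.08 and 0.63 ± 0.08. RPS6KB1, the S6 kinase that acts downstream of mTORC1, rose by 0.61 ± 0.06.

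**Figure D4:**
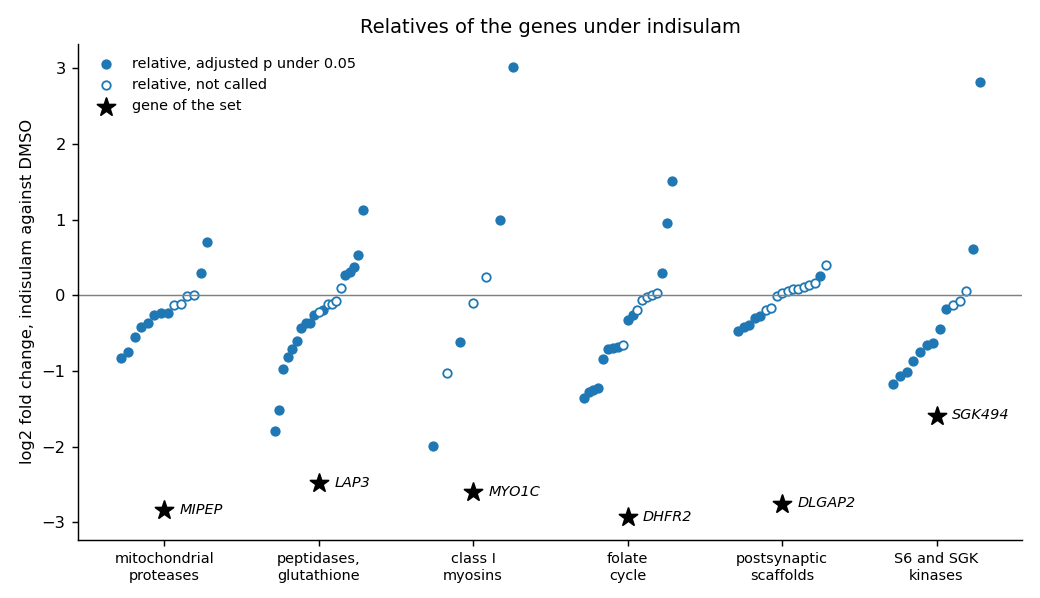
Log2 fold change in indisulam against DMSO for 92 relatives (filled where the edgeR adjusted p was under 0.05, open where not) and for the gene of the set in each family (star). Every star lies below every relative of its family, as the choice of the genes favours; MYO1G at 3.02 is the highest point.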

How the data were processed

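The authors' deposited table holds whole-number counts for every gene in each library, without normalization. The submitters' processing notes name GRCh38, featureCounts 2.0.1, HISAT2 2.2.1, Trimmomatic 0.39 and FastQC 0.11.9. For their settings, nothing is given in the sources used here. GENCODE 29 has the same start, end, strand and exonic length for each of the 58735 genes, and exon overlap was taken from it. The default filter of edgeR 4.0.16 (filterByExpr) left 22433 genes, while untested genes took no more than 0.0654% of any library. The quasi-likelihood test (R 4.3.3) used TMM scaling and 1 mean per treatment, with 12 residual degrees of freedom over the 16 libraries. P-values are two-sided and adjusted over the 22433 genes by Benjamini-Hochberg, with a threshold of 0.05. SEs were derived from the F statistic, fold changes use a prior count of 0.125, and the code was tested on simulated data. CPM values are TMM-scaled counts per 1e6, and log2 CPM for correlations has a prior count of 2. Libraries of a group differed beyond counting noise (chi-square per degree of freedom 9.41 to 37.5). The deviation from the sum of the single drugs is the interaction term of the fit.

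The 7 genes and all gene lists were chosen with earlier results of these data known. Named were the 7 genes, their exon partners, the MYO1 and DLGAP families, from each list of relatives the 4 genes with the smallest p in indisulam, the 3 nearest patterns per gene and neighbours in the ranking. Some genes that this rule takes are not reported here. Alternatives were DESeq2 1.42.0, upper-quartile scaling, a filter of 1 CPM in 4 libraries, no filter, only the groups compared, a replicate block, and leaving out each library. Promoter sequences are from RefSeq (GRCh38.p14).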

Additional observations from a re-analysis of the deposited data

Results flagged for a closer look

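Single libraries stood out in 2 of 48 groups of 4, where chance flags about 1 in 20. MYO1C was at 7.31 CPM in combination replicate 2 and between 3.74 and 3.86 in the other 3 libraries. DLGAP2 was at 37.6 CPM in DMSO replicate 1 and between 30.1 and 31.2 in the others.

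Among the 35 exon partners and relatives named, the effect of alectinib differed between DMSO and indisulam in 11, beside 13.5% of all tested genes. The test was that of the difference itself (edgeR, adjusted over all tested genes), and the adjusted p follows each value and its SE. From each list, 4 relatives were named for the smallest p in indisulam against DMSO, which is part of this difference. The 11 of 35 can therefore not be weighed against the 13.5%. The values compare the log2 change with alectinib on top of indisulam to that with alectinib alone, and not the levels. This difference was negative for AC005726.1 (-1.04 ± 0.33 SE, edgeR adjusted p = 0.0403), ERICH1 (-0.43 ± 0.12, adjusted p = 0.0197), CLPX (-0.41 ± 0.09, adjusted p = 0.0033), NLN (-0.44 ± 0.10, adjusted p = 0.0038), DLG3 (-0.44 ± 0.10, adjusted p = 0.0055) and DLGAP4 (-0.34 ± 0.10, adjusted p = 0.0286). The difference was positive for RNPEP (0.41 ± 0.12, adjusted p = 0.0243), GSS (0.69 ± 0.15, adjusted p = 0.00407), TYMS (0.38 ± 0.12, adjusted p = 0.037), SHMT2 (0.53 ± 0.13, adjusted p = 0.00664) and RPS6KB2 (0.64 ± 0.11, adjusted p = 0.000722). For GSS, alectinib alone gave -0.56 and alectinib on indisulam 0.13.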

How the results depend on the processing

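All directions in indisulam and in the combination against DMSO held for the 7 genes under each alternative run, between -3.64 and -1.47. Upper-quartile scaling moved the median of all genes by 0.12 in the combination, where DHFR2 was then at -1.68. Calls in alectinib among the 7 were 5, or 6 (LAP3 added) with no filter, only the groups compared, the replicate block or without combination replicate 2. Leaving out 1 library gave 5 to 6. Genes called then numbered 9800 to 10999 in indisulam, 3812 to 5329 in alectinib and 12939 to 13678 in the combination, and relatives called 55 to 61, 23 to 34 and 62 to 70. Exon partners called in alectinib were 1, but 2 with DESeq2, only the groups compared or the replicate block, 0 with the 1 CPM filter or upper-quartile scaling, and 0 to 2 without 1 library. AC005726.1 lost its call in alectinib without DMSO replicate 1 (-0.48, edgeR adjusted p = 0.141) and without 6 other libraries in turn. The cause was not tested. Of 1457 comparisons for partners and relatives, 33 lost a call and 19 gained one, and no called direction reversed. Replicate numbers were not taken as pairs, since the labels state no pairing. The values themselves leaned toward pairing, as 5 of 24 same-number correlations (-0.0626 to 0.168, median 0.0492) were over 0.1. Among 72 other-number pairs, 2 were (median -0.0104), and 9 of 16 libraries were closest to their own number among the 4 numbers. This is a hint of pairing from the data and not the design. With the replicate block the genes called numbered 11044 (indisulam), 5490 (alectinib) and 13738 (combination), beside 10734, 5009 and 13527. Counts as low as 72 limit the precision of SGK494 and C4orf50. The deviation from the sum of the single drugs has no fit with only the groups compared.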

Other observations

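Further relatives of SGK494, DHFR2 and LAP3 were singled out after their values were seen. SGK1, the founding glucocorticoid-inducible kinase of its family, rose by 2.81 ± 0.41 (SE, log2, n = 4 libraries per group) in indisulam and by 3.16 ± 0.41 in the combination, and was at 1.11 ± 0.44 in alectinib, without a call. SGK2 had values of -1.07 ± 0.33 with indisulam, 1.43 ± 0.29 with alectinib and 0.72 ± 0.29 with both drugs, all called by edgeR. Like DHFR2 it was lower with indisulam and higher with alectinib, but unlike DHFR2 it stood above DMSO in the combination. The CPM levels of SGK1 and SGK2 are not given here. Their SEs (0.29 to 0.44) were larger than the 0.26 of MYO1H in indisulam, a gene at 0.389 CPM in DMSO. MTHFD2L, a mitochondrial enzyme of folate metabolism, rose by 0.95 ± 0.13 in indisulam and by 1.01 ± 0.13 in the combination. CHAC1, which breaks down glutathione and is induced in the integrated stress response, was at -0.43 ± 0.16 with indisulam, 0.62 ± 0.15 with alectinib and 1.11 ± 0.16 with both drugs, all called by edgeR.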
